A study of Caenorhabditis elegans with 8 samples.

Results

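*Caenorhabditis elegans* larvae in the first stage (L1), starved and carrying the spr-5 allele by101, were compared with wild-type N2 larvae by RNA sequencing of whole animals. The comparison took in every row of the authors' deposited spr-5 table, 50832 RefSeq transcripts, and 7138 of them reached a base mean of 50. The base mean is the authors' mean of scaled read counts over the 4 libraries of the comparison, 2 of spr-5 and 2 of N2. The wider study also sequenced met-2 (n4256) larvae and the double mutant spr-5 (by101); met-2 (n4256), for 8 libraries in 4 groups. Worms were grown on OP50 bacteria at 20 °C, and each library was made from a pool of 200 to 250 larvae that had hatched overnight in M9 buffer without food at 21 to 22 °C. The labels give 1 allele of spr-5 and do not say whether the 2 libraries of a group came from separate cultures, so p-values measure the spread between these libraries only. In whole animals, fewer cells of a type and less RNA per cell cannot be told apart.

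SPR-5 is the worm counterpart of the mammalian demethylase LSD1, which removes methyl groups from lysine 4 of histone H3, a mark that accumulates at transcribed genes. Its gene was found through mutations that suppress loss of the presenilin sel-12, and worms without it are known to lose fertility over successive generations. MET-2 adds methyl groups to lysine 9 of histone H3. A hatched L1 larva holds a small pair of primordial germ cells among its somatic cells, and without food it stops developing until it is fed. The comparison asks which genes differ when SPR-5 alone is missing at this stage.

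No column used here holds the value of a single library, and no fold change below could be refitted. The reads of single libraries could still be read back, because each whole read adds a fixed step, set by its library, to the base mean. The 4 steps gave size factors of 1.14, 1.12, 1.08 and 0.819. On simulated base means built with these steps, 60 of 60 sets of reads were recovered exactly. Since the same steps were used, this checks the recovery of reads and not the steps themselves. The labels do not say which sample a recovered library is, and libraries were not assigned to groups by their values. They are called U1, U2, U3 and U4 in that order, and enter no mean or test between groups. The 4 libraries were not alike. Over 3831 transcripts with a base mean of 50 to 200, U1 and U4 were within 2-fold of each other for 92.9% of transcripts, while the other pairs of libraries were for 41.8% to 46.8%. Spearman's rho across these transcripts was 0.82 for U1 and U4, and between -0.09 and 0.08 for the other pairs. These transcripts were chosen by their summed level, which lowers such correlations, and transcripts are not independent replicates. Of the 3831 transcripts, 77 had no read in U2 and 108 had no read in U3, against 0 in U1 and 3 in U4.

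A single library held most of the reads of nearly every transcript at the extremes of the table. With a base mean of 50 or more, 125 transcripts had a positive log2 fold change and an unadjusted p under 0.05, and reads were recovered for 124. In 115 of those U3 held more than 50% of the scaled reads, and U1 did in 4. Of the 41 with a negative one, 40 were recovered, and U2 held more than 50% in 38 and U4 in 1. Over the 3831 transcripts of base mean 50 to 200, a single library held more than 50% in 24.7%. That share is no matched baseline, because the 3831 were not selected by fold change and the sets above were. Selection for a large difference between groups by itself raises the share of the top library. With 2 libraries a group, a difference between groups alone, with equal libraries inside each, takes that share to 50% at most. A library above 50% held more scaled reads than the other libraries together, its partner in the group included. The libraries of its group thus differed in these transcripts, whatever the labels. More than 80% lay in a single library in 52 of the 124 higher and 18 of the 40 lower transcripts. The sets above were also not limited to base means of 50 to 200. The part of single libraries in the fold changes was not tested, since no fit without a library can be made from these tables.

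At the authors' adjusted p under 0.05, the authors' deposited table called 3 of its 29720 tested transcripts (0.0101%), all higher in spr-5. The 3 lie above the base mean minimum, where they were 0.042% of 7138 transcripts and 0.0483% of 6217 genes. At an unadjusted p under 0.05 and the same minimum, 1.75% of transcripts were higher and 0.574% were lower. Together these are 2.33%, fewer than the 5 in 100 that evenly spread p-values would give. The median p-value was 0.677, and the SD of the Wald statistic was 0.756. That SD would be near 1 for correctly scaled errors and no change, if fold changes were not drawn towards 0. With fold changes drawn towards 0, the SD and the share of small p-values would both be lower. The median log2 fold change was -0.02, and 90.3% of the transcripts lay within 1 of 0 on the log2 scale. The authors' standard errors at this minimum ran from 0.65 to 0.93 with a median of 0.80 on the log2 scale. A typical 95% interval thus reached 1.56 to either side. The smallest log2 fold change that reached an unadjusted p under 0.05 was 1.55, and the smallest called one was 4.38 in the authors' deposited table.

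**Figure D1:**
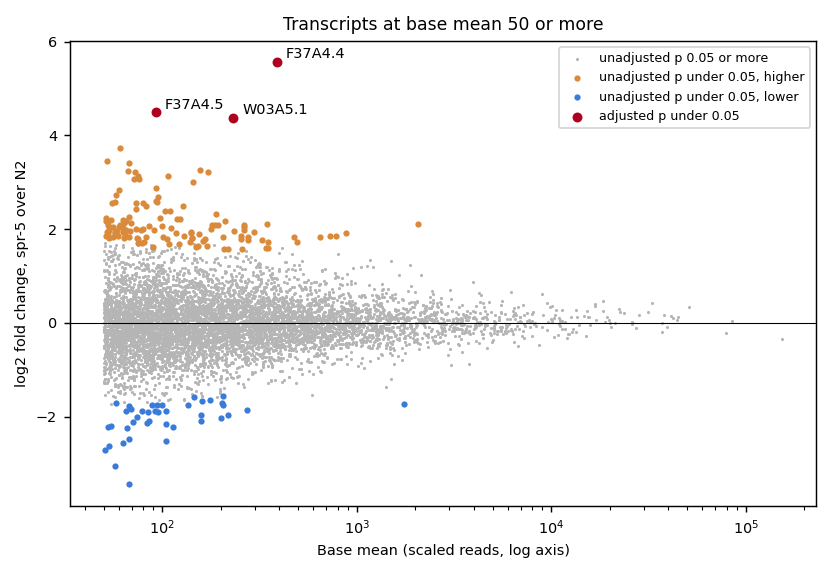
Log2 fold change of spr-5 over N2 against base mean (log axis) for the 7138 transcripts at a base mean of 50 or more, with colours for the authors' p-values. The 3 called transcripts stand at the top, and transcripts at an unadjusted p under 0.05 lie mostly at the low end of the base mean.

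The called genes were F37A4.4 (NM_066070), W03A5.1 (NM_065752) and F37A4.5 (NM_066069), for which the sources used here give no other name. F37A4.4 had 240 reads in U1, 0 in U2, 1452 in U3 and 2 in U4. Its reads lay almost entirely in U1 and U3, with U3 well above U1. The log2 fold change of F37A4.4 in the authors' deposited table was 5.57 (SE 0.85, adjusted p 1.49e-06, DESeq2), with a 95% interval of 3.91 to 7.23. W03A5.1 had 602 reads in U1, 8 in U2, 415 in U3 and 8 in U4, so that U1 and U3 held comparable numbers and the other libraries almost none. For W03A5.1 the log2 fold change in the authors' deposited table was 4.38 (SE 0.77, adjusted p 0.000211, DESeq2). F37A4.5 had 57 reads in U1, 1 in U2, 347 in U3 and 0 in U4, the same pattern as F37A4.4 at a lower number of reads. That of F37A4.5 was 4.49 (SE 0.88, adjusted p 0.00343, DESeq2) in the authors' deposited table.

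The N2 libraries enter all 3 of the authors' deposited tables, and the other tables bound their level for these genes. The base mean of F37A4.5 was 0.445 in the authors' deposited table of met-2. The mean of the N2 libraries there was therefore at most 0.890 scaled reads, the value that would leave no read for met-2. For F37A4.4 the same bound from the authors' deposited table of met-2 was 4.88 scaled reads, and for W03A5.1 it was 27.3. For the spr-5 comparison, the base means of F37A4.4, F37A4.5 and W03A5.1 in the authors' deposited table were 388, 92.8 and 232 here. The tables were scaled separately, so these values stand side by side only approximately. For F37A4.4 and F37A4.5 they nevertheless imply larger log2 ratios of group means than the deposited 5.57 and 4.49. For W03A5.1 the bound does not settle this. The deposited fold changes and their intervals thus describe the authors' fitted values and not the ratios of reads. In the double mutant, which carries the same spr-5 allele, the base means in the authors' deposited table were 12.4 for F37A4.4, 0.742 for F37A4.5 and 15.2 for W03A5.1, all far below those of the spr-5 comparison.

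In the RefSeq gene order of assembly WBcel235, F37A4.5 lies directly beside F37A4.4. On the far side of F37A4.5, F37A4.6 had a value of 0.95 on the log2 scale (SE 0.80), and on the far side of F37A4.4, bus-22 had 0.39 (SE 0.87) at a base mean of 5.02, in the authors' deposited table. Neither passed an unadjusted p of 0.05. bath-41 and F37A4.2, the next genes beyond bus-22, had log2 fold changes of -0.49 and -0.32 in the authors' deposited table. W03A5.1 lies 399 annotated genes from F37A4.4 in that order. Its nearest measured neighbours at a base mean of at least 50 were Y32H12A.8 and dnj-24, with log2 fold changes of 0.60 (SE 0.72) and 0.22 (SE 0.77) in the authors' deposited table. The strand setting of the read counting is not given in the sources used here, so reads of overlapping neighbours could not be told apart.

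The F37A4 pair also closed the highest window of neighbouring genes. When the 6217 genes with a base mean of at least 50 were put in RefSeq gene order and the median log2 fold change of every 25 neighbours was taken, the highest of 6073 windows ran from mrps-17 to F37A4.4 and spanned 75 annotated genes. Its median was 0.60, against a median of -0.02 (SD 0.14) over the windows, and 19 of its 25 genes were above 0. The positive values were not a continuous run, since mdh-2, ctsa-4.2, cmtr-2 and copd-1, the measured genes before F37A4.6, had -0.35, -0.47, -0.44 and -0.40 in the authors' deposited table. The highest window that did not overlap it, from fpn-1.1 to F32B5.2, had 0.47, and the lowest, from F58B4.5 to T19C4.1, had -0.45. Beside the F37A4 pair, 3 genes of the highest window had an unadjusted p under 0.05. These were ddo-3, C09E7.8 and chtb-2, with log2 fold changes of 3.46, 2.12 and 2.50 in the authors' deposited table. Log2 fold changes from 0.54 for C05D11.1 upwards were also seen for set-1 (which adds a methyl group to lysine 20 of histone H4), pole-3, T26A5.6 and the bZIP gene zip-8 in the authors' deposited table. The same 25 genes had a median of 0.12 in met-2, rank 543 among the windows, and 0.40 in the double mutant, rank 46. The windows overlap, were examined after the values had been seen, and were not tested.

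**Figure D2:**
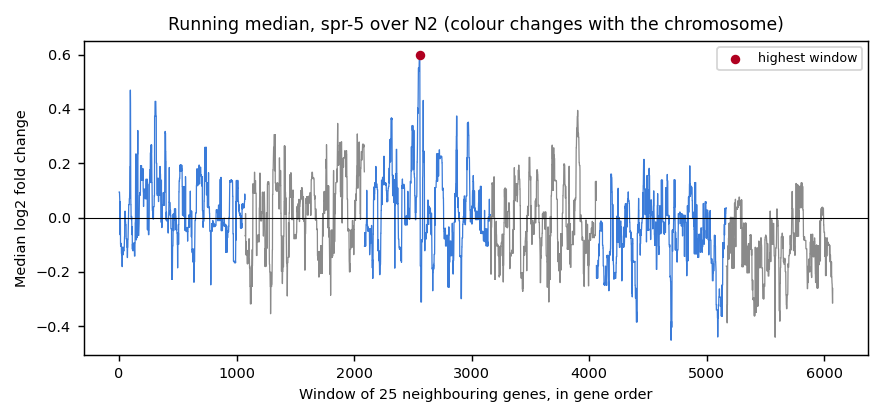
Median log2 fold change of spr-5 over N2 in each of 6073 windows of 25 neighbouring genes, in RefSeq gene order, with the line colour changing at each chromosome. The red point marks the highest window, at 0.60, which ends at F37A4.4.

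Behind the 3 called genes, the highest genes had few reads outside U3. The 15 genes with the highest log2 fold changes at an unadjusted p under 0.05, the called ones included, ran from 2.83 to 5.57 in the authors' deposited table, and 13 were protein-coding. One library held more than 80% of the scaled reads in 13 of the 15, and the top library was U3 in 13 and U1 in 2. C32D5.12 had 14 reads in U1, 0 in U2, 249 in U3 and 0 in U4, and its log2 fold change in the authors' deposited table was 3.74 (SE 0.92, adjusted p 0.324, DESeq2). ddo-3 had 14 reads in U1, 0 in U2, 212 in U3 and 1 in U4. Reads of srg-27 and srsx-38, which belong to families of predicted chemosensory receptors, followed the same course. They numbered 6, 0, 287 and 1 for srg-27 and 8, 0, 280 and 2 for srsx-38, in the order U1 to U4.

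B0511.11 and F13H8.8 departed from that pattern. The first had 257 reads in U1, 0 in U2, 413 in U3 and 14 in U4, so that U1 and U3 were both high. B0511.11 was at 3.25 on the log2 scale (SE 0.88, adjusted p 0.775, DESeq2) in the authors' deposited table. F13H8.8 had 400 reads in U1, 0 in U2, 72 in U3 and 9 in U4, and a value of 3.12 on the log2 scale (SE 0.89) in the authors' deposited table. R11E3.2, Y38H8A.2 and mfsd-8.2 had log2 fold changes of 3.21, 3.22 and 2.87 in the authors' deposited table, with 91.3% or more of their scaled reads in U3. The non-coding RNA K10D6.13 had 326 of its reads in U3 and 1, 0 and 1 in the others. Of the 15 genes, the authors' deposited table of met-2 gave 9 a base mean under 10, and that of the double gave 8. The log2 fold change was above 0 in met-2 for 13 of the 15 and in the double mutant for 10, where C32D5.12 had a base mean of 0. By the authors' deposited tables, R11E3.2 had the highest value in met-2, 2.34, while in the double F37A4.4 had 2.76 and K10D6.13 a higher one. These comparisons use the same N2 libraries as the spr-5 one. None of the 15 was called in met-2 or in the double mutant.

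**Figure D3:**
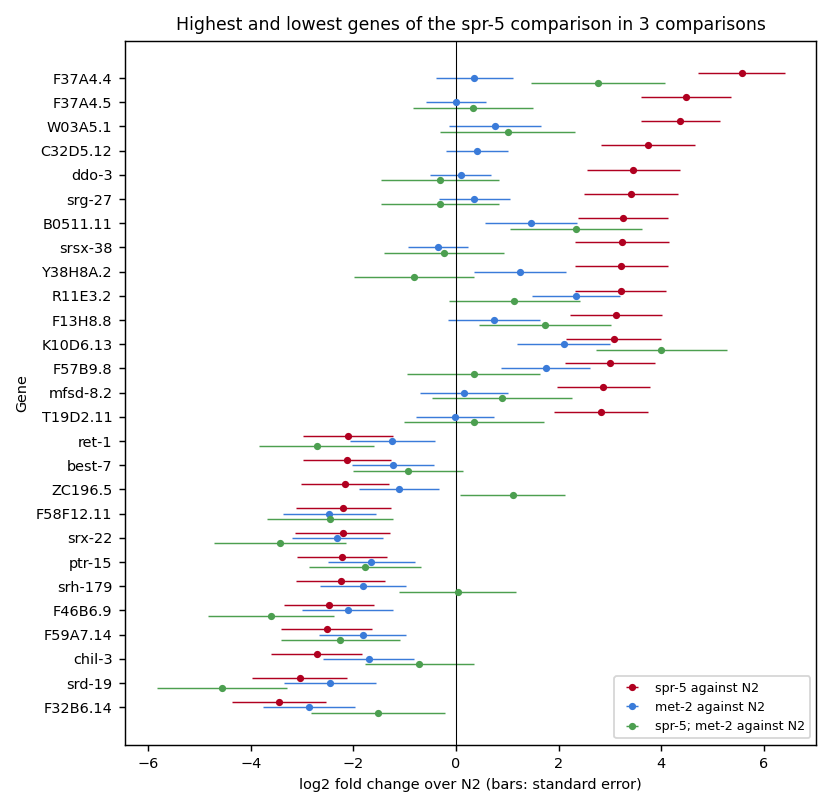
Log2 fold changes over N2 with the authors' standard errors for the 15 highest and 12 lowest genes of the spr-5 comparison, in spr-5, met-2 and the double mutant. The 3 comparisons share the N2 libraries. The red points of spr-5 reach from -3.44 to 5.57, and the lowest genes are below 0 in met-2 as well.

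Some genes with smaller fold changes drew their reads from more than 1 library. At an unadjusted p under 0.05, 5 of the 124 higher transcripts with recovered reads had no library above 50% of the scaled reads. They were prg-1, rpl-11.1, C46A5.6, C29A12.1 and NM_060146. prg-1, which encodes the Piwi protein that binds piRNAs, had 1601 reads in U1, 301 in U2, 1112 in U3 and 185 in U4. The log2 fold change of prg-1 was 1.86 (SE 0.73, unadjusted p 0.0103, DESeq2) in the authors' deposited table. rpl-11.1, a copy of the gene for ribosomal protein L11, had 983, 257, 816 and 113 reads in the same order. Its value was 1.72 on the log2 scale (SE 0.74, unadjusted p 0.0197, DESeq2) in the authors' deposited table. In both genes U1 and U3 had more reads than U2 and U4. klp-19, a kinesin of the mitotic spindle, and ani-2, an anillin of the germ line, followed with 431, 32, 857 and 166 reads and 236, 13, 356 and 62 reads. Their log2 fold changes were 1.72 and 1.90 in the authors' deposited table. After adjustment none of these genes passed.

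The largest negative values rested on U2. The 12 lowest genes at an unadjusted p under 0.05 had log2 fold changes down to -3.44 in the authors' deposited table, and adjusted p-values from 0.775 upwards (DESeq2). U2 held more than 50% of the scaled reads in 12 of the 12 and more than 80% in 9. F32B6.14, a non-coding RNA, had 1 read in U1, 299 in U2, 0 in U3 and 3 in U4. srd-19, a predicted chemoreceptor, had 2, 253, 0 and 2 reads in that order, and srx-22, another, had 8, 229, 0 and 1. For each of them, 3 libraries were near 0 and U2 alone was high. chil-3, of the chitinase-like family, had 9, 180, 1 and 29 reads and a value of -2.71 on the log2 scale (SE 0.89, adjusted p 0.999944, DESeq2) in the authors' deposited table. ptr-15, a patched-related membrane protein, had 39, 430, 4 and 30 reads and a value of -2.22 on the log2 scale (SE 0.88) in the authors' deposited table. best-7, of the bestrophin channel family, had -2.13 in the authors' deposited table. In met-2, 12 of the 12 had a negative log2 fold change and a base mean of 50 or more by the authors' deposited table, and in the double mutant 10 of the 12 were negative and 1 was called. These comparisons share the N2 libraries.

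**Figure D4:**
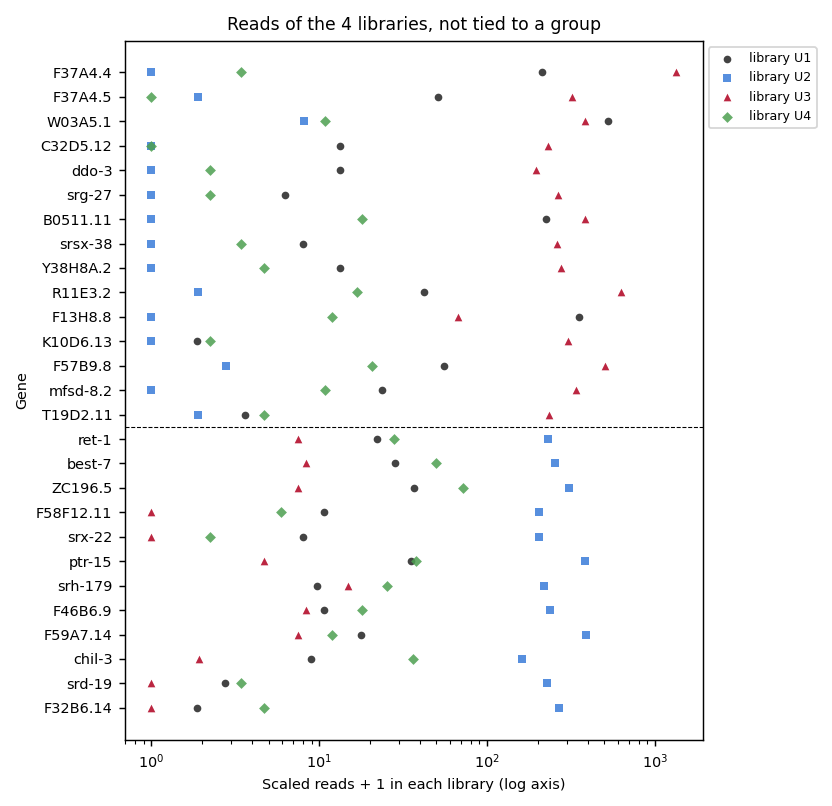
Scaled reads plus 1 (log axis) in each of the 4 recovered libraries for the 12 lowest genes (below the dashed line) and the 15 highest genes (above it); no label ties a library to a group. Triangles of U3 lie at the right for most of the upper genes and squares of U2 for each of the lower ones. F37A4.4, F37A4.5, W03A5.1, B0511.11 and F13H8.8 have clear reads in both U1 and U3.

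Among the lower genes, vit-5 and T06E6.10 drew on 2 libraries. vit-5 encodes a yolk protein made in the adult intestine and loaded into eggs. It had 55 reads in U1, 237 in U2, 73 in U3 and 211 in U4, so that U2 and U4 had more reads than U1 and U3. The fitted log2 fold change of vit-5 was -1.57 (SE 0.77, unadjusted p 0.0421, DESeq2) in the authors' deposited table. T06E6.10 had 34, 124, 5 and 124 reads in the same order, and its value was -2.01 on the log2 scale (SE 0.85) in the authors' deposited table. At higher levels, the cathepsin B-like protease gene cpr-2 had a value of -1.72 on the log2 scale (SE 0.75, unadjusted p 0.0225, DESeq2) at a base mean of 1750 in the authors' deposited table. bus-5, whose product takes part in making the cuticle surface, had -2.03 (SE 0.87) in the authors' deposited table, with 70, 777, 26 and 22 reads.

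The spr-5 transcript itself was present in the libraries of this comparison. spr-5 (NM_060965) had 947 reads in U1, 311 in U2, 1124 in U3 and 477 in U4, and no library lacked it. The mutant over N2 log2 fold change of spr-5 was 0.90 (SE 0.74, unadjusted p 0.226, DESeq2) in the authors' deposited table, with an interval of -0.55 to 2.35. A mutant allele can still be transcribed, and the place of the reads within the gene is not known, so this value checks no label. met-2, intact in these strains, had 633, 958, 1030 and 424 reads and a value of 0.11 on the log2 scale (SE 0.74) in the authors' deposited table.

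Partners and genetic targets of SPR-5 showed no called change, where 0.0483% of all 6217 genes were called. spr-1, which encodes the worm CoREST corepressor that works with SPR-5, had a value of 0.21 on the log2 scale (SE 0.76) in the authors' deposited table. sel-12, a presenilin of the gamma-secretase that cleaves Notch receptors, had 0.10 (SE 0.77, interval -1.40 to 1.61) there, in the authors' deposited table. Loss of spr genes is known to raise hop-1, the second presenilin gene, in early larvae. Here hop-1 had a base mean of 17.4, below the minimum, and a value of -0.94 on the log2 scale (SE 0.93, interval -2.75 to 0.87) in the authors' deposited table. spr-3, a zinc-finger repressor of hop-1, had 1.18 (SE 0.92) at a base mean of 15.4 in the authors' deposited table. The base mean of spr-4, a related zinc-finger gene, was 0.219, and spr-2 was at 0 in the authors' deposited table. Both have 2 transcripts in the table, a matter taken up below. Paralogous demethylase genes lsd-1 and amx-1 had 0.04 (SE 0.83) and -0.20 (SE 0.81) in the authors' deposited table. The Notch receptor gene glp-1 had 0.81 (SE 0.82) there, in the authors' deposited table.

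Of the list of SPR-5 partners and presenilin suppressors, 8 of 13 genes reached the minimum. At an unadjusted p under 0.05 there were 0, and the median log2 fold change was 0.10. Over the 6217 genes at the minimum, each represented by its transcript with the largest base mean, 1.8% were higher and 0.595% were lower at that p (2.4% together), with a median of -0.02 and 48.5% above 0. For enzymes that write or erase methylation at lysine 4 of histone H3, 10 of 14 genes reached the minimum, 5 of them above 0, with a median of -0.02 and 0 at an unadjusted p under 0.05. rbbp-5 and ash-2, core subunits of the methyltransferase complexes for that residue, had log2 fold changes of -0.62 (SE 0.81) and -0.51 (SE 0.78) in the authors' deposited table. hcf-1, a cofactor of such complexes, had 0.59 (SE 0.75) in the authors' deposited table.

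Among 8 measured genes for methylation of the other lysines of histone H3, the median was 0.05 and 0 had an unadjusted p under 0.05. mes-4, which maintains lysine 36 methylation on germline genes, had 263 reads in U1, 27 in U2, 514 in U3 and 131 in U4. On the log2 scale mes-4 was at 1.42 (SE 0.82, unadjusted p 0.0847, DESeq2) in the authors' deposited table. jmjd-3.2, of the family of lysine 27 demethylases, had 1.37 (SE 0.86), and hpl-1, a heterochromatin protein, had -0.84 (SE 0.84) in the authors' deposited table. The DREAM complex and related synMuv proteins repress germline genes in the soma, and 11 of their 14 measured genes were above 0, with a median of 0.28. Of these 14 genes 1 had an unadjusted p under 0.05, where 2.4% of all 6217 genes did. It was lin-35, the worm retinoblastoma protein, with 153, 174, 1607 and 103 reads in the order U1 to U4 and 78.2% of the scaled reads in U3. On the log2 scale lin-35 was at 1.83 (SE 0.83, unadjusted p 0.0267, DESeq2) in the authors' deposited table. dpl-1, its DP partner in the complex, had 1.15 (SE 0.79) in the authors' deposited table.

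The germline lists had 0 called members, where 0.0483% of all 6217 genes were called. At an unadjusted p under 0.05, 1.8% of all genes were higher and 0.595% were lower. In the Argonaute and small RNA list, 25 of 46 genes in the table reached the minimum, 16 were above 0, the median was 0.27, and 2 had an unadjusted p under 0.05, both higher. These were prg-1, given above, and ego-1, an RNA-dependent RNA polymerase of the germ line. ego-1 had 260 reads in U1, 56 in U2, 738 in U3 and 75 in U4 and a value of 2.06 on the log2 scale (SE 0.78, unadjusted p 0.00866, DESeq2) in the authors' deposited table. wago-4, an Argonaute of inherited silencing, had 163, 53, 348 and 59 reads and did not pass an unadjusted p of 0.05. mut-14, a helicase of small RNA amplification, had 1.18 (SE 0.81) in the authors' deposited table. In prg-1, ego-1 and wago-4 alike, U1 and U3 exceeded U2 and U4.

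In the P granule and germ plasm list 7 of 24 genes reached the minimum and 6 were above 0, with a median of 0.21. glh-1, a Vasa-like helicase of P granules, had 377, 62, 101 and 138 reads and a value of 0.68 on the log2 scale (SE 0.82) in the authors' deposited table. mex-5 and mex-6, near-duplicate RNA-binding proteins of the early embryo whose reads may be shared in counting, had 1.15 (SE 0.81) and -0.95 (SE 0.84) in the authors' deposited table. Meiosis genes reached the minimum in 5 of 37 cases. The median was 0.22, with coh-3, a meiotic cohesin, at 1.06 (SE 0.79) and brd-1, a BRCA1 partner, at 1.04 (SE 0.84) in the authors' deposited table. Of the translational regulators of the germ line, 13 of 27 genes reached the minimum, with 7 above 0 and a median of 0.09. The Pumilio-family gene puf-8 had 1.48 (SE 0.85) and gld-1, a repressor of translation in meiosis, had -0.88 (SE 0.86) in the authors' deposited table. These lists had 0 members at an unadjusted p under 0.05.

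Sperm transcripts were near the floor. Only spe-26 and spe-39 of the 89 spermatogenesis genes in the table reached the minimum, at 0.85 (SE 0.83) and -0.05 (SE 0.76) in the authors' deposited table. Of 41 defining sperm markers, 10 were at 0, major sperm protein genes among them, and the highest base mean was 36.3. Among oogenesis and eggshell genes, 11 of 24 reached the minimum, 4 were above 0 and the median was -0.18. The eggshell proteoglycan genes cpg-1 and cpg-2 had -0.91 (SE 0.82) and -1.01 (SE 0.85) in the authors' deposited table, and vit-5, given above, was the member at an unadjusted p under 0.05.

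Replication genes had a median of 0.26, with 15 of 25 above 0 and 0 at an unadjusted p under 0.05. mcm-7, of the replicative helicase, had a value of 1.34 on the log2 scale (SE 0.80, unadjusted p 0.0951, DESeq2) in the authors' deposited table. U3 was the highest library in 11 of the 24 replication genes with recovered reads, and U2 the lowest in 13. Of the 24 measured histone genes, 9 were above 0, with a median of -0.15. Their reads differed more between libraries than the fold changes show. The median ratio of scaled reads to the base mean was 1.89 in U4, 0.943 in U1, 0.814 in U3 and 0.311 in U2. Histone genes occur as near-identical copies, so the reads of a single copy are uncertain.

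The lists of somatic tissues had 0 called members, where 0.0483% of all 6217 genes were called. In the muscle list 32 of 40 genes reached the minimum and 12 were above 0, with a median of -0.12. unc-120, a serum response factor that specifies body-wall muscle, had -0.86 (SE 0.75) and tni-1, a troponin I, had -0.42 (SE 0.72) in the authors' deposited table. The intestine list had 24 of 34 genes at the minimum, 9 above 0 and a median of -0.35. lys-7, a lysozyme gene, had 62, 166, 57 and 168 reads and a value of -1.32 on the log2 scale (SE 0.78, unadjusted p 0.0914, DESeq2) in the authors' deposited table. Its U2 and U4 counts exceeded those of U1 and U3. The gut protease genes cpr-4 and cpr-5 had -0.89 (SE 0.87) and -0.88 (SE 0.88) in the authors' deposited table, but cpr-4 had 442, 121, 33 and 768 reads, high in U1 and U4 alike. U3 was the lowest library in 12 of the 18 intestine genes with recovered reads.

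Cuticle collagens differed widely between the libraries. For 9 of the 14 measured cuticle collagens with recovered reads, the median ratio of scaled reads to the base mean was 1.34 in U1 and above that in U4, but 0.0768 in U2 and 0.107 in U3. Over 3328 genes with a base mean of 50 to 200 the ratios were 0.983 in U1, 1.02 in U4, 0.850 in U2 and 0.837 in U3. The collagen list had a median log2 fold change of -0.17, with 2 of 14 above 0 and 0 at an unadjusted p under 0.05. That median was -0.05 over 50 genes at a minimum of 10 and -0.49 over 7 genes at a minimum of 200. In the hypodermis and molting list 10 of 42 genes reached the minimum, with 6 below 0 and a median of -0.16, which became 0.18 over 19 genes at a minimum of 10. Of these 10, dpy-14 and noah-2 had an unadjusted p under 0.05, where 1.8% of all 6217 genes were higher at that p. dpy-14, a collagen of embryonic and early larval cuticle, had 90, 15, 129 and 11 reads and a value of 2.04 on the log2 scale (SE 0.84, unadjusted p 0.0147, DESeq2) in the authors' deposited table. noah-2, a protein of the apical extracellular matrix, had 51, 56, 352 and 4 reads and 1.79 (SE 0.88) in the authors' deposited table.

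Neuronal genes had a median of -0.07, with 8 of 18 above 0 and 0 at an unadjusted p under 0.05. osm-6, needed to build sensory cilia, had 1.65 (SE 0.85, unadjusted p 0.0527, DESeq2) in the authors' deposited table. The list of somatic fate factors and Hox genes had a median of -0.05 over 13 genes, with skn-1 at 1.05 (SE 0.80) and hlh-8 at -0.98 (SE 0.84) in the authors' deposited table.

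Of 72 measured neuropeptide and insulin-like genes, 62 were below 0 and the median was -0.36. Of the 72, 0 had an unadjusted p under 0.05, where 2.4% of all 6217 genes did. Their values ran from -0.99 to 0.89. flp-13, an RFamide neuropeptide gene, had 258, 541, 158 and 210 reads and a value of -0.78 on the log2 scale (SE 0.76) in the authors' deposited table. nlp-43 had 105, 157, 22 and 121 reads and -0.99 (SE 0.83) in the authors' deposited table. U2 was the highest library in 26 and U3 the lowest in 27 of the 56 with recovered reads. These genes are short, and fold changes moved with transcript length. With 6073 genes cut into 5 equal bins by their longest annotated transcript, log2 fold changes had a median of -0.17 in the shortest bin (up to 838 bases) and 0.10 in the longest (2447 bases or more). Spearman's rho between length and log2 fold change was 0.18 across genes, which are not independent replicates. The met-2 comparison gave a rho of 0.19 and that of the double 0.13, so the trend was not limited to spr-5. All of these comparisons share the N2 libraries. Of the 70 peptide genes with a length, 64 (91.4%) were in the shortest bin. Their median there was -0.39, and that of the 1153 other genes of that bin was -0.16. The part of length in the peptide values was not tested beyond this.

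Of 30 measured genes of mitochondrial respiration and ATP synthase, 26 were below 0, with a median of -0.23, a lowest value of -0.83 for cox-6C (SE 0.77) in the authors' deposited table, and 0 at an unadjusted p under 0.05. U4 was the highest library in 16 and U3 the lowest in 13 of the 22 with recovered reads, and 11 of the 30 were in the shortest bin by length. The vacuolar ATPase list had a median of -0.17 over 16 genes. Cytosolic ribosomal protein genes had a median of 0.03 over 56 genes, and proteasome genes one of -0.05 over 27. Ribosomal protein genes are short too, and 38 of the 43 with a length (88.4%) were in the shortest bin. Their median there was 0.02, and that of the 1179 other genes of that bin was -0.19. Among the vacuolar ATPase, ribosomal protein and proteasome genes 1, rpl-11.1, had an unadjusted p under 0.05, where 2.4% of all 6217 genes did.

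In genes tied to L1 arrest through insulin signalling, 14 of 18 were above 0 and the median was 0.22. aak-1, a catalytic subunit of the energy sensor AMPK, had 56, 16, 381 and 19 reads, with 80.3% of the scaled reads in U3. aak-1 was at 2.38 on the log2 scale (SE 0.85, unadjusted p 0.00495, DESeq2) in the authors' deposited table. daf-12, a steroid hormone receptor, had 1.25 (SE 0.84), and daf-36, which acts early in making the hormone of DAF-12, had 2.69 (SE 0.88, unadjusted p 0.00235, DESeq2) in the authors' deposited table. Reads of daf-36 numbered 31, 3, 363 and 13. Among genes of fasting lipid and sugar use the median was 0.02 over 12 genes, and fat-3, a fatty acid desaturase, had 1.58 (SE 0.78, unadjusted p 0.0416, DESeq2) in the authors' deposited table.

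Stress and defence genes had 0 called members, where 0.0483% of all 6217 genes were called. The heat shock and chaperone list had a median of 0.14 over 17 genes. hsp-12.6, a small heat shock gene controlled by DAF-16, had 75, 632, 127 and 47 reads and -1.26 (SE 0.84) in the authors' deposited table. The C-type lectin and lysozyme list had 41 of 54 genes below 0 and a median of -0.40, and U3 was the lowest library in 31 of 47. With a base mean of at least 200 its median was -0.05. clec-78 had 1.58 (SE 0.78, unadjusted p 0.0421, DESeq2) and clec-42 had -1.57 (SE 0.89), with 131, 363, 1 and 267 reads, in the authors' deposited table. Detoxification enzymes had a median of -0.05 over 75 genes, from gst-41 at -1.69 (SE 0.87) to 0.90 in the authors' deposited table. The list of pals and fbxa genes, which include the intracellular pathogen response, had a median of 0.01 over 24 genes, with fbxa-128 at 2.02 (SE 0.88, unadjusted p 0.0209, DESeq2) in the authors' deposited table. Reads of such paralogous genes may be split between copies. Nuclear hormone receptors had a median of -0.10 over 73 genes, and hedgehog-related and patched-related genes -0.05 over 24. The chemoreceptor list, with 18 of 1283 genes at the minimum, held 2 higher and 3 lower genes at an unadjusted p under 0.05. Over all 6217 genes 1.8% were higher and 0.595% lower at that p. By the reads given above, srg-27, srsx-38, srd-19 and srx-22 reached the minimum through a single library each. Their place in the list and their large fold changes thus rest on the same reads, and the count is no support for a change of the list. With a base mean of at least 10, which took in 165 chemoreceptor genes, the median of the list went from -0.38 to 0.07.

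**Figure D5:**
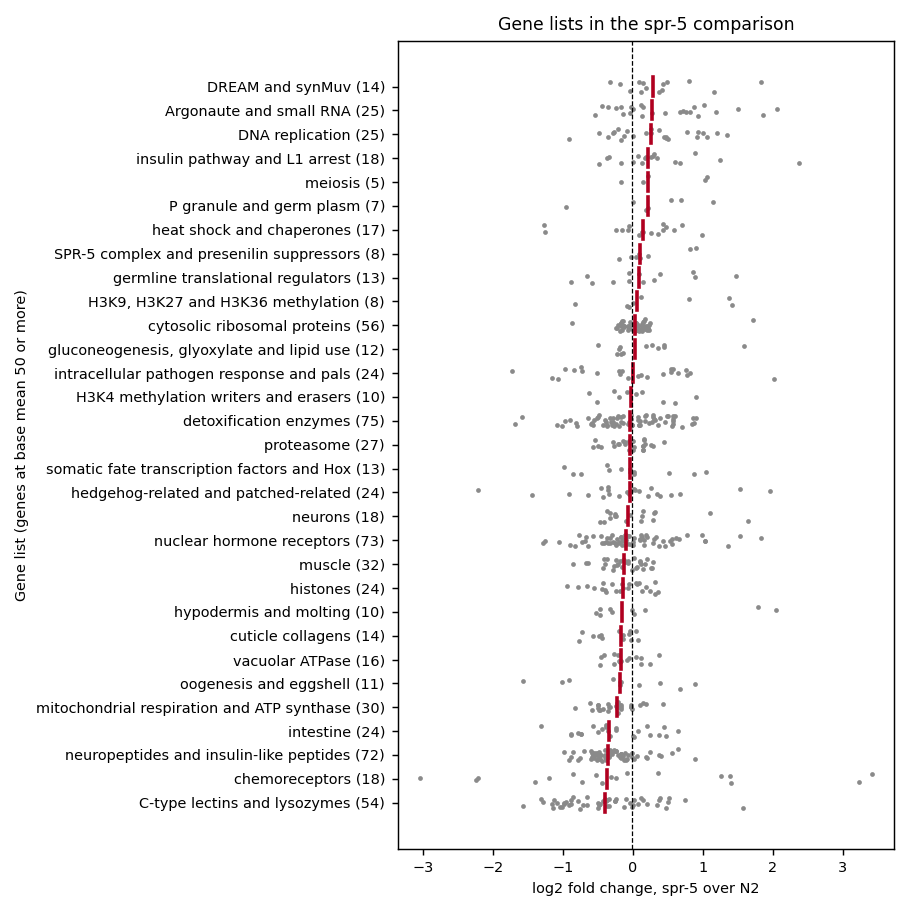
Log2 fold changes of spr-5 over N2 for the members of each gene list with at least 5 genes at a base mean of 50 or more (grey points, number of genes in brackets), with the list median (red bar) and the median of the 6217 genes (dashed line). Medians run from -0.40 for C-type lectins and lysozymes to 0.28 for DREAM and synMuv genes, and points spread well beyond them.

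Grouping by gene name without regard to function gave 79 families of at least 8 measured genes. The highest median log2 fold changes were those of npp (nuclear pore proteins, 0.40 over 15 genes), daf (0.30 over 15), lron (0.30 over 9), ints (subunits of the Integrator complex, 0.30 over 8), rab (small GTPases of membrane traffic, 0.29 over 15) and cdc (0.24 over 10). Of the 15 rab genes, 14 were above 0, from rab-14 at -0.05 to rab-28 at 1.97 (SE 0.81) in the authors' deposited table. npp-26 led its family with 2.08 (SE 0.84) in the authors' deposited table, and 598 of its reads were in U3 against 99, 72 and 16 in U1, U2 and U4. The lowest medians were those of clec (-0.56 over 38), frpr (peptide receptors, -0.55 over 8), skr (Skp1-related ubiquitin ligase subunits, -0.55 over 8), twk (potassium channels, -0.41 over 8), nlp (-0.38 over 45) and flp (-0.38 over 20). This order depended on the minimum. At a base mean of 10 or more the medians were -0.22 for clec, -0.32 for skr and -0.13 for twk, and at 200 or more clec had 0.02 over 14 genes. Among the highest families, rab then had 0.13 over 13 genes, lron 0.12 over 4 and ints -0.45 over 1. Medians of npp (0.42 over 9), daf (0.30 over 9) and cdc (0.24 over 6) were little changed at 200 or more. Of the 20 flp genes 19 were below 0, and flp-25 was the exception at 0.01 (SE 0.77) in the authors' deposited table. No family median was as large as the median standard error of its members' fold changes. That error belongs to single genes and does not measure the error of a median over a family.

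Genes with more listed transcripts reached the minimum less often. Whether the assignment of reads or low expression lies behind this was not tested. Of protein-coding genes with 1 listed transcript, 4.82% of transcripts had a base mean of 0 and 36.9% of genes reached the minimum. Where a gene had 2 listed transcripts, 53.1% of transcripts were at 0 and 17.7% of genes reached the minimum, and with 4 or more the values were 79.2% and 12.7%. These shares were not computed list by list or for the markers that follow. Of 5 neuronal and 6 hypodermal defining markers in the table none reached a base mean of 50, while 6 of 8 intestinal, 3 of 4 body-muscle and 4 of 4 pharyngeal markers did. The marker elt-3 of the hypodermis and him-3 of the germ line were at 0.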

How the data were processed

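Total RNA of whole starved L1 larvae was sequenced in 8 libraries, of which 2 of spr-5 and 2 of N2 enter this comparison. Per the submitters' processing notes, FastQC, Trimmomatic, featureCounts and DESeq2 (2.11.40.2) were used with build ce10. The aligner, annotation and strand setting are not given in the sources used here. The authors deposited 3 tables without headers. Per feature, the authors deposited a signal (the base mean, from counts scaled by library), a log2 fold change with its standard error, the Wald score that is their ratio, a p-value, and that p-value after adjustment. The median standard error was 0.918 at base means of 10 to 50 and 0.633 below 10. The SD of the log2 fold changes was 0.769 and 0.325 in the same ranges. Whether the authors shrank fold changes, that is, drew them towards 0, is not given in the sources used here. For F37A4.4 and F37A4.5 the bounds on N2 given above imply larger ratios of group means than the deposited fold changes. For these genes at least, the deposited values were thus not plain ratios of group means. The sum of base means was 5216670 scaled reads, of which 96.6% lay at a base mean of at least 50.

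The tables used here give no values of single samples, so the authors' adjusted p under 0.05 was used with no further test, and the tables were scaled separately. Names and gene order were taken from RefSeq annotation of WBcel235, which matched 46074 of 50832 transcripts (90.6%). Transcript lengths came from the Ensembl annotation of WBcel235 and covered 97.7% of the 6217 genes. Gene values are those of the transcript with the largest base mean. Reads of single libraries were recovered for base means up to 900 where 1 solution lay within 1.5e-12. Intervals are 1.96 standard errors to either side of the authors' fitted value.

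Named genes are the called ones, the 15 highest and 12 lowest at an unadjusted p under 0.05, up to 4 members of each list by p, the extremes of described families, and spr-5, met-2, sel-12, hop-1, lsd-1 and spr-1 to spr-4. A few were picked with their values in view: the genes beside the called ones and in the highest window, cpr-2, bus-5, T06E6.10, klp-19, ani-2, C46A5.6, C29A12.1 and NM_060146. Members and lists were chosen with earlier results of these data known. Read recovery, its limits and the 50% and 80% shares, the length bins and the windows were chosen after seeing the data. The number of unused columns of single samples was 0. The Benjamini-Hochberg recomputation was tested on simulated data and recovered 199 of 200 transcripts changed by 5 on the log2 scale among 7138, with 8 false calls. Python 3.11.15, pandas 2.3.3 and numpy 2.4.6 were used.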

Additional observations from a re-analysis of the deposited data

How the results depend on the processing

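The count of 3 called transcripts stayed at 3 with an adjusted p under 0.01 and with Benjamini-Hochberg adjustment recomputed over base means of at least 50, at least 10, or 1 transcript a gene. Of the 3, W03A5.1 was the 1 in which no recovered library held over 80% of the scaled reads. At an unadjusted p under 0.05, the 125 higher transcripts became 259 with no minimum, 259 at a minimum of 10, and 28 at a minimum of 200. The 41 lower ones became 84, 84 and 7 under the same settings, by the construction of the minimum. With transcripts in which no library held over 50% of the scaled reads, 5 higher and 1 lower were left. These last settings were chosen after seeing the data. Of 32 list medians, 2 moved by at least 0.2 with a minimum of 10, where 4 changed sign, and 7 of 31 with a minimum of 200, where 7 changed sign. At 200 the median was -0.17 for meiosis, 0.31 for translational regulators, 0.39 for chaperones and 0.23 for detoxification enzymes. Of the 12 family medians described, 3 moved at a minimum of 10 with 0 changes of sign, and 3 of 11 at 200, where these 3 changed sign; ints and twk then rested on 1 gene each. The cause was not tested. No paired analysis was possible because library values in these tables carry no replicate number. Fits without each replicate, with edgeR, DESeq2 or TMM, and with another filter on counts, need per-sample counts and were not run. With a median standard error of 0.80 on the log2 scale, deposited log2 fold changes smaller than about 1.56 could not pass an unadjusted p of 0.05 at a typical transcript. Where deposited values lie nearer 0 than the ratio of group means, the change between groups would have to be larger.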
